A study of Mus musculus with 6 samples.

Results

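A set of 35 genes was at or near silence in control aortic EC and counted in every library of EC that overexpressed Meis1. Genes were taken when they lay below 1 CPM (the count relative to the library's total, in counts per 1e6) in all 3 control libraries, reached at least 1 CPM in all 3 Meis1-OE libraries, and had a lowest Meis1-OE level at least 5 times the sum of the highest control level and 0.1 CPM. Of 54429 genes in the table, 28116 had a count, and 14739 of these lay below 1 CPM in every control library. The limits were met by 39 of the 14739 (0.265%). Esr1, Itga8, Plcb2 and Csf2rb2 were then set aside by name, together with Meis1 and Csf2rb, which did not meet the limits, leaving the 35. The members were thus chosen by the measured CPM of the Meis1-OE against YFP-CTRL comparison, so these values are given as a description and carry no test.

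The study asked whether Meis1 moves adult EC towards the hemogenic program of the embryo. Primary aortic EC from adult WT C57BL/6 mice, bought from a supplier, were transduced with a lentiviral Meis1-OE vector or with YFP-CTRL, a vector without Meis1. In both groups, transduced cells were sorted as YFP+CD31+VEC+, so the gate kept cells with 2 endothelial surface proteins, and were then grown to confluency before ribodepleted RNA-seq. Each condition had 3 replicates described as independent, with nothing said of separate animals, named here by the letters of the table's columns (libraries A, B and C). Overexpression is limited as a model to cultured adult cells of 1 vascular bed with a transgene far above the endogenous level: Meis1 was counted at 3266, 3586 and 3277 CPM after Meis1-OE transduction and at 1.14, 1.30 and 1.77 CPM without it (libraries A, B and C each time).

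Totals ran from 34176642 to 47956605 estimated counts per library, so that 3 counts, taken as the floor for detection, equalled 0.0626 to 0.0878 CPM in the controls. The endothelial label held: 16 of 16 endothelial markers were above 1 CPM in at least 1 library, with summed levels of 4536 to 5180 CPM in Meis1-OE and 4875 to 6311 CPM in YFP-CTRL. Meis1-OE library A and YFP-CTRL library C stood apart from the other libraries of their groups. With library A left out, 61 genes met the rule, and with control library C left out 65 did. The list of 35 was contained in both. In bulk RNA, more cells that express a gene and more RNA per expressing cell cannot be told apart.

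MEIS1 is a homeodomain protein of the TALE class that binds DNA around a TGACAG core, often beside a PBX partner, and is best known for its work in blood stem cells, heart and limb. Differentiated cells keep most genes of other tissues silent, and EC of the aorta are marked by adhesion, signalling and arterial genes rather than by the enzymes of muscle, liver or skin. Aquaporins move water across membranes, guanylate-binding proteins are interferon-induced GTPases, and R-spondins strengthen Wnt signalling.

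The promoters were examined because MEIS1 recognises a short sequence. Reference windows of 300 bases, from 250 bases before to 50 bases after an annotated start (RefSeq, GRCm38.p6), were matched to 25 of the 35 genes, with 29 windows in all because Stra6 had 4 and Greb1 had 2. The genes without a window were C1qtnf1, Ccl7, Cdkn1c, Col14a1, Fgf1, Gbp10, Gbp6, Ly6d, Rspo3 and Scml4. The 5 windows that held TGACAG on either strand are shown by their 250 bases before the start, 5′ to 3′ on the gene's strand, with the core in capitals (as CTGTCA where it lies on the opposite strand).
Ip6k3 (chr17:27167765-27168014, minus strand): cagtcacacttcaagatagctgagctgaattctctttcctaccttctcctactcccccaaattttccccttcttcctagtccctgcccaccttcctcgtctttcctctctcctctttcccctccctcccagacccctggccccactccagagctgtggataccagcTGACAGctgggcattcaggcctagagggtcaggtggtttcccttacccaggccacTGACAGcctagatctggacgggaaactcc
Cox8b (chr7:140900447-140900696, minus strand): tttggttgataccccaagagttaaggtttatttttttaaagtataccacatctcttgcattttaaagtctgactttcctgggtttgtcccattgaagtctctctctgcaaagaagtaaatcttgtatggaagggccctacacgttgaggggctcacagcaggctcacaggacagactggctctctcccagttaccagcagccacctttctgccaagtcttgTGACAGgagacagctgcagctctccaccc
Gsta3 (chr1:21240335-21240584, plus strand): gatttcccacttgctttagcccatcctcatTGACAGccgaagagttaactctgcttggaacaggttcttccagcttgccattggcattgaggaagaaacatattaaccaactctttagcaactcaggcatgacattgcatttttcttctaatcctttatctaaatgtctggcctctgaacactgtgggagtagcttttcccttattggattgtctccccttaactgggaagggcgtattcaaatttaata
Sprr3 (chr3:92458721-92458970, minus strand): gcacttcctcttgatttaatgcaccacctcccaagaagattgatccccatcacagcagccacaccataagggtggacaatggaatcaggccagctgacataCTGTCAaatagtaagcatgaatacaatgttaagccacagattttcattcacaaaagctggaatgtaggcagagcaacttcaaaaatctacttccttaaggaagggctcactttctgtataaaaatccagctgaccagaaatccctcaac
Scin (chr12:40134229-40134478, minus strand): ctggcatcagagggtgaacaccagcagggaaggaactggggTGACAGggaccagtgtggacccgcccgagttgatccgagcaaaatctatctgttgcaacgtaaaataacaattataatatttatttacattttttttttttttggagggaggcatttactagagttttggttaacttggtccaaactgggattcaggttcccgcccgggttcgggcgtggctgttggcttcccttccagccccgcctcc
Ip6k3 was the gene with 2 copies, 84 and 29 bases before its start, and Cox8b also had its copy 29 bases before the start. The copies of Gsta3, Sprr3 and Scin lay 220, 149 and 209 bases before theirs.

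The core was about as frequent in the switched-on genes as elsewhere, a description without a test. Counting a gene once if any of its windows held the core, it was found in 5 of 25 genes (20.0%), in 21.5% of all 20484 genes with a window, in 23.5% of other genes below 1 CPM in every control, and in 19.2% of other tested genes. The longer MEIS and PBX motif, TGAT followed directly by TGACAG and so overlapping the core, was found in 0 of the 25 and in 0.273% of all genes with a window. The estrogen response motif, GGTCA and TGACC around any 3 bases on either strand, searched because Esr1 met the limits, was found in 0 of the 25 and in 0.0732% of all genes with a window. Base composition was described in the same way. The median GC content was 61.3%, against 50% in other genes below 1 CPM in the controls and 61.7% in other tested genes. The median ratio of observed to expected CpG was 0.557, between the 0.264 of the former and the 0.781 of the latter. A match is a match of letters, and binding was not measured here.

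Levels of the switched-on genes were low. The mean over the 3 Meis1-OE libraries ran from 1.22 CPM (Ankrd63) to 20.7 CPM (Gbp6), with a median of 4.52 CPM. Only 6 genes averaged 10 CPM or more (Gbp6, Ip6k3, Gja4, Megf6, Gsta3 and Islr), and 23 averaged under 5 CPM. Together the 35 genes summed to 137 CPM in library A, 225 in B and 229 in C of Meis1-OE, and to 4.30, 4.42 and 6.57 CPM in the controls. Per kilobase of transcript, the scale on which genes can be compared, the median of the 33 genes with a known length was 1.79 CPM per kb, against 8.33 over 11375 tested genes. Cox8b, at 11.1 CPM per kb, was highest on that scale, followed by Gsta3 (9.75), Ip6k3 (8.56), Gja4 (7.43) and Aqp8 (6.20), and Col14a1 was lowest (0.227). In 5 genes (Rspo3, Stra6, Ankrd63, Ly6d and Gm6460) no control library held a count.

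**Figure D1:**
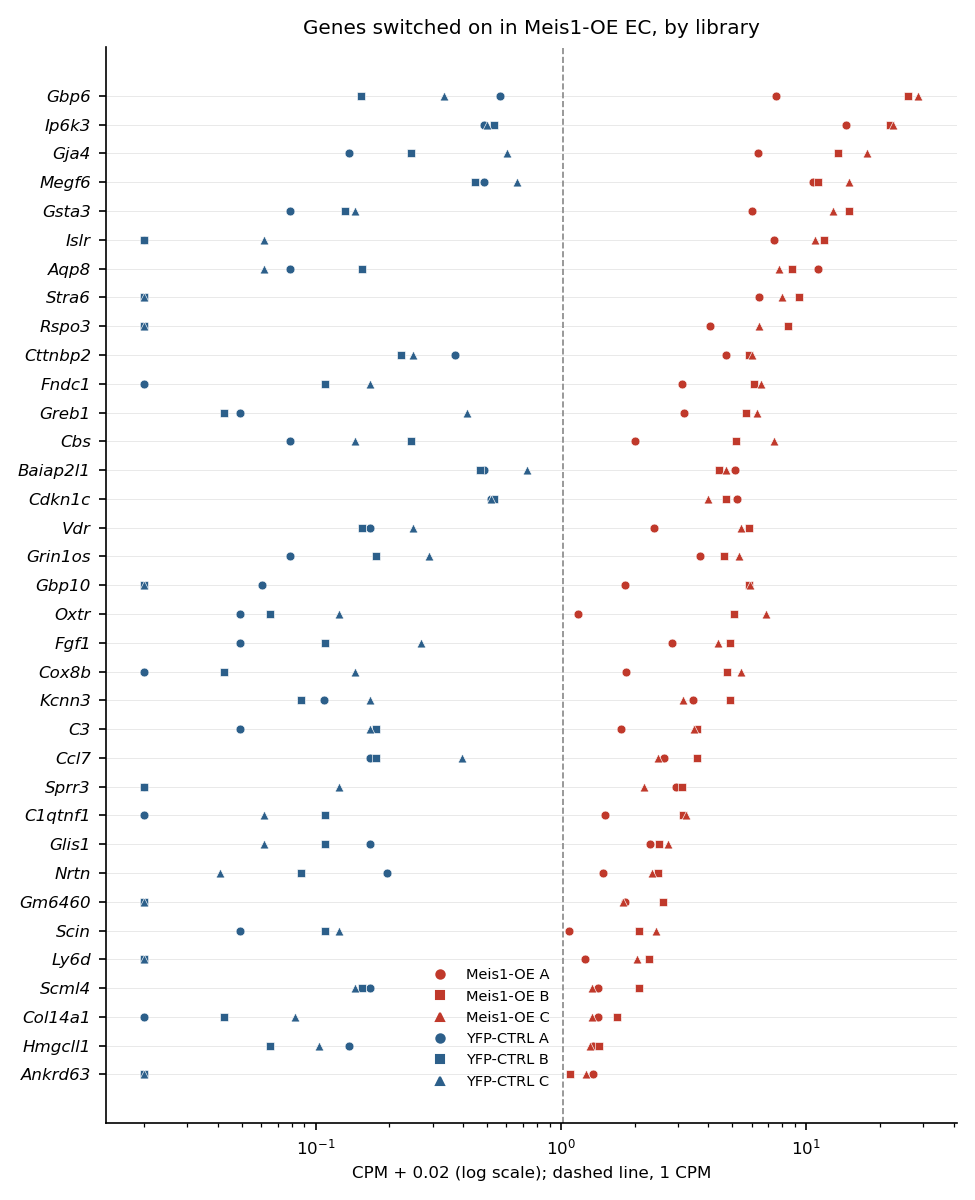
CPM + 0.02 on a log axis for the 35 genes in each of the 6 libraries, ordered by mean Meis1-OE level. Red symbols are Meis1-OE and blue symbols YFP-CTRL libraries, with circles, squares and triangles for libraries A, B and C, and points at the left edge are counts of 0. The red points lie to the right of the dashed line at 1 CPM and the blue points to its left, which the rule required.

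Secreted ligands numbered 4. Rspo3, an R-spondin made by stromal and some endothelial cells, was at 4.03 CPM in library A, 8.45 in B and 6.39 in C of Meis1-OE, the order used throughout, and at 0 in all controls, at least 86.7-fold higher when each control library is set to 3 counts. Fgf1, a fibroblast growth factor, was at 2.82, 4.88 and 4.37 CPM against 0.0293, 0.0897 and 0.250 CPM in control libraries A, B and C. In both genes the lowest Meis1-OE library stood above the highest control, which the rule required of every member. Nrtn, which encodes neurturin, a neurotrophic factor of the GDNF family, was at 1.47, 2.48 and 2.33 CPM against 0.176, 0.0673 and 0.0209 CPM. C1qtnf1, a secreted relative of adiponectin, ran from 1.5 to 3.23 CPM against 0 to 0.0897 CPM.

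Genes for matrix and surface adhesion proteins also numbered 4. Megf6, a secreted protein with many EGF-like repeats, was at 10.7, 11.2 and 15 CPM against 0.468, 0.426 and 0.646 CPM, a 23.9-fold ratio of means. Islr, which encodes Meflin, a surface protein of mesenchymal stromal cells, was at 7.41, 11.8 and 10.9 CPM. Its controls held 2 counts in all, at 0, 0 and 0.0417 CPM, so that the ratio of summed counts was 641 with a 95% counting interval of 177 to 5300. Megf6 was thus low but countable in the controls, whereas Islr was close to absent there. Fndc1, a fibronectin domain protein, was at 3.11, 6.11 and 6.54 CPM against 0, 0.0897 and 0.146 CPM. Col14a1, a fibril-associated collagen, reached only 1.32 to 1.68 CPM, against 0 to 0.0626 CPM.

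Rspo3, Islr, Fndc1 and Col14a1 are known from stroma, and the stromal list was uneven. Of 17 fibroblast and stromal markers, 14 lay under 1 CPM in every library and Lum, Dpt, Thy1 and Tcf21 were at 0 throughout. The summed level was 21.3 to 23.4 CPM in Meis1-OE and 20.4 to 51.0 CPM in YFP-CTRL. Pdgfra, the main contributor, was at 13.1, 12.2 and 11.9 CPM against 33.1, 45.0 and 14.7 CPM (log2 fold change -1.47, edgeR adjusted p = 0.0598), and Postn, which encodes periostin, was at 0.483, 1.2 and 2.88 CPM against 0, 0.0449 and 0.0834 CPM. Their part in the values of the stromal members was not tested.

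Channels, transporters and receptors made up 6 of the genes. Gja4 encodes connexin 37, a gap junction protein of arterial EC, and was at 6.35, 13.5 and 17.7 CPM against 0.117, 0.224 and 0.584 CPM, a 40.6-fold ratio of means. Aqp8, a water channel of liver, gut and exocrine glands, was at 11.2, 8.72 and 7.75 CPM against 0.0585, 0.135 and 0.0417 CPM. Its ratio of means, 118-fold, was the highest among members with more than 3 control counts. Stra6, the cell surface receptor that takes up retinol from its carrier, was at 6.44, 9.34 and 7.99 CPM and at 0 in the controls, at least 109-fold higher. Aqp8 and Stra6 spread little between the Meis1-OE libraries, and Gja4 was lowest in library A. Oxtr, the oxytocin receptor, was the most uneven of the set: 1.16 CPM in library A, 5.07 in B and 6.85 in C, against 0.0293, 0.0449 and 0.104 CPM. Kcnn3, a small conductance calcium-activated potassium channel, was at 3.43, 4.88 and 3.14 CPM against 0.0878, 0.0673 and 0.146 CPM. Ly6d, a surface protein of keratinocytes and early lymphoid cells, ran from 1.23 to 2.27 CPM and was at 0 in the controls, at least 25.4-fold higher.

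Nuclear regulators numbered 5. Vdr, the vitamin D receptor, was at 2.37, 5.82 and 5.40 CPM against 0.146, 0.135 and 0.229 CPM. Greb1, an estrogen-responsive cofactor of the estrogen receptor, was at 3.16, 5.68 and 6.32 CPM against 0.0293, 0.0224 and 0.396 CPM. Both were lowest in Meis1-OE library A. Cdkn1c, which encodes the cyclin-dependent kinase inhibitor p57, was at 5.19, 4.68 and 3.95 CPM against 0.497, 0.516 and 0.5 CPM, a 9.13-fold ratio of means. Glis1, a Krüppel-like zinc finger protein, ran from 2.29 to 2.72 CPM against 0.0417 to 0.146 CPM. Scml4, a Polycomb-related protein, was at 1.4, 2.07 and 1.32 CPM against 0.146, 0.135 and 0.125 CPM.

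Enzymes numbered 5. Ip6k3, the inositol hexakisphosphate kinase typical of muscle and brain, was at 14.5, 22.1 and 22.6 CPM against 0.468, 0.516 and 0.480 CPM, a 40.5-fold ratio of means. Gsta3, an alpha class glutathione S-transferase, was at 5.99, 14.9 and 12.9 CPM against 0.0585, 0.112 and 0.125 CPM, a 114-fold ratio of means. The window of Ip6k3 is the one with the 2 TGACAG copies shown above. Library A was the lowest Meis1-OE library for both enzymes. Cbs, cystathionine beta-synthase of the transsulfuration pathway, was at 1.98, 5.18 and 7.38 CPM against 0.0585, 0.224 and 0.125 CPM. Cox8b, the heart and muscle isoform of a cytochrome c oxidase subunit, was at 1.83, 4.75 and 5.42 CPM against 0, 0.0224 and 0.125 CPM. Hmgcll1, a lyase of leucine and ketone body metabolism, ran from 1.30 to 1.41 CPM against 0.0449 to 0.117 CPM.

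Innate immunity supplied 4 genes. Gbp6, an interferon-induced GTPase, had the highest mean CPM of the set, at 7.5, 26.0 and 28.7 CPM against 0.545, 0.133 and 0.313 CPM. Gbp10, its neighbour and close relative, was at 1.8, 5.83 and 5.92 CPM. The single count of Gbp10 in the controls gave a ratio of 581 with a 95% counting interval of 104 to 23000. Guanylate-binding protein genes are so alike that reads may have been divided between them, and the split of counts between Gbp6 and Gbp10 is therefore uncertain. C3, the central complement component, ran from 1.74 to 3.57 CPM against 0.0293 to 0.157 CPM. Ccl7, a chemokine that attracts monocytes, was at 2.61, 3.59 and 2.48 CPM against 0.146, 0.157 and 0.375 CPM.

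Macrophage markers overlapped between the groups in their summed level, though not in every single marker. Of 19 myeloid and macrophage markers, 17 lay under 1 CPM in every library, and C1qa, C1qb, C1qc, Tyrobp, Adgre1 and S100a9 were at 0 throughout. Their summed level was 78.8 to 110 CPM in Meis1-OE and 66.2 to 130 CPM in YFP-CTRL, nearly all of it Cd68.

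Cytoskeletal and scaffold proteins numbered 5. Cttnbp2, a cortactin-binding protein of neurons, was at 4.68, 5.84 and 5.99 CPM against 0.351, 0.202 and 0.229 CPM. Baiap2l1, an actin-bundling protein of epithelia, was at 5.12, 4.38 and 4.70 CPM against 0.468, 0.449 and 0.709 CPM, an 8.74-fold ratio of means that was the lowest of the set. Sprr3, a small proline-rich protein of stratified epithelium, ran from 2.17 to 3.11 CPM against 0 to 0.104 CPM. Scin, which encodes the actin-severing protein scinderin, was at 1.06, 2.07 and 2.42 CPM against 0.0293, 0.0897 and 0.104 CPM. Ankrd63, an ankyrin repeat protein, was at 1.33, 1.07 and 1.25 CPM and at 0 in the controls, at least 16.8-fold higher.

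The remaining genes were Grin1os, a noncoding RNA antisense to Grin1, and the predicted gene Gm6460. Grin1os ran from 3.69 to 5.31 CPM against 0.0585 to 0.271 CPM, and Gm6460 from 1.78 to 2.60 CPM against 0 in every control. Grin1 itself was at 0.241 to 0.432 CPM in Meis1-OE and 0.117 to 0.229 CPM in YFP-CTRL. Counting was not stated to use strand, so reads of overlapping genes cannot be told apart. The same holds for Baiap2l1, which overlaps Bri3 (59.4 to 66.5 CPM against 51.8 to 64.9 CPM), and for Fgf1, which overlaps Arhgap26 (7.47 to 8.52 CPM against 4.07 to 13.7 CPM).

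By the tissue each gene is best known for, an assignment made from general knowledge after the values were seen, no label held more than 4 genes. That maximum depends on the labels, which divide genes of epithelia: Baiap2l1 was placed with liver, gut or gland, and Sprr3, Ly6d and Stra6 elsewhere. Stroma, innate immunity, and liver, gut or gland had 4 each, the nervous system 3 (Nrtn, Kcnn3 and Cttnbp2), and striated muscle (Ip6k3 and Cox8b), stratified epithelium (Ly6d and Sprr3) and uterus with mammary gland (Oxtr and Greb1) 2 each. Artery (Gja4) and eye with other epithelia (Stra6) had 1 each. A further 6 are known from several tissues, and 6 were not assigned.

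Lists of tissue genes were then read by the same limits. The 26 lists held 418 genes, and 330 of these lay below 1 CPM in every control library, 219 with a count in some library. Gja4, of the artery list, was the single gene switched on (0.457% of the 219), beside 0.265% of all genes below 1 CPM in the controls. The other 25 lists had 0 members each. Among them, 34 muscle, 19 liver, 18 neuronal and 14 erythroid genes lay below 1 CPM in every control. Of the 330 genes, 323 lay under 1 CPM in all 6 libraries, and 111 were at 0 throughout. Cd14 was the other gene of the 330 at 1 CPM or more in every Meis1-OE library, at 1.21, 1.05 and 1.08 CPM against 0.907, 0.673 and 0.542 CPM. Of the 330, 35 besides Gja4 had counts enough for the edgeR test, some through Meis1-OE alone, and 7 of these, from 7 lists, passed as higher below the limits of the rule: Des (muscle), Postn (stroma), S100b (glia), Plin4 (adipocyte), Gp9 (platelet), Hey1 (artery) and Adgrg6 (endocardium), with 0 lower. Levels of these 7 in Meis1-OE ran from 0.314 CPM (S100b) to 2.88 CPM (Postn). Over all 16065 genes tested, 4.14% were higher by the same test, but 13354 of these had 1 CPM or more in a control library. The share over all tested genes below 1 CPM in every control was not taken, so 4.14% is not a matched comparison. Because some of the 35 entered through Meis1-OE alone, the 7 higher and 0 lower are a description.

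**Figure D2:**
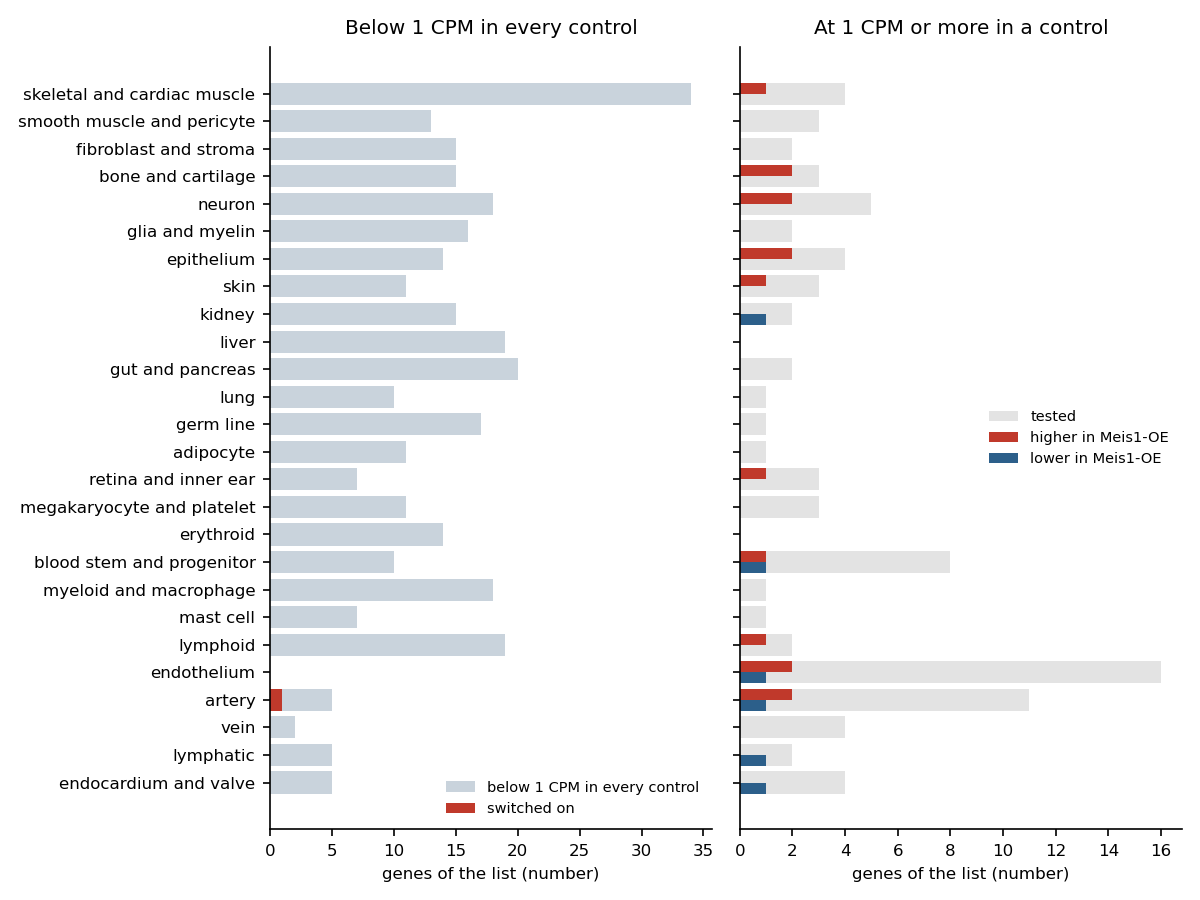
Number of genes in each of the 26 tissue lists. Left, genes below 1 CPM in every control library (grey) and those of them switched on (red). Right, genes at 1 CPM or more in a control library that were tested (grey) and those higher (red) or lower (blue) in Meis1-OE. The single red bar at left is Gja4, and at right 15 of 88 genes were higher and 6 lower.

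Tissue genes already on in the controls could be tested, since the rule could not take them. Of 88 such genes, the quasi-likelihood test of edgeR, with p adjusted by Benjamini-Hochberg over all 16065 genes, called 15 higher (17.0%) and 6 lower (6.82%). Over all 13354 tested genes with 1 CPM or more in a control library, 3.32% were higher and 3.24% lower. The tissue lists were chosen with earlier results of these data known, so the shares are a description. The median log2 fold change was 0.05 for the 88 genes and -0.01 for all 13354, so the called genes were a minority beside many that did not pass the test.

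Gja5 (connexin 40), the arterial relative of Gja4, was at 70.8, 89.5 and 98.8 CPM against 0.527, 1.19 and 2.82 CPM, a log2 fold change of 5.66 (SE 0.56, adjusted p = 0.00386). Gad2, a GABA-synthesising enzyme of neurons, was at 69.2, 83.2 and 94.4 CPM against 2.34, 3.26 and 6.31 CPM, a log2 fold change of 4.22 (SE 0.39, adjusted p = 0.00307). Krt19, a keratin of simple epithelia, was at 39.3, 22.9 and 19.1 CPM against 0.614, 1.26 and 2.02 CPM, a log2 fold change of 4.19 (SE 0.46, adjusted p = 0.0052). These 3 had the largest increases among the called genes and no overlap between groups.

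On the lower side, among the 6 called genes, Npr3, a natriuretic peptide receptor of the endocardium, was at 12.9, 10.7 and 8.70 CPM against 59.9, 44.2 and 16.8 CPM (log2 fold change -2.05, adjusted p = 0.0338). Lyve1, a lymphatic hyaluronan receptor, was at 83.9, 80.4 and 85.5 CPM against 229, 422 and 153 CPM (-1.84, adjusted p = 0.0301). Cxcl12, an arterial chemokine, was at 279, 146 and 141 CPM against 507, 450 and 520 CPM (-1.54, adjusted p = 0.0148). Each of the 3 lost its call when some single libraries were left out.

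The artery list, source of the one listed member, was mixed. Of its 11 genes already on, Gja5 and Vegfc rose and Cxcl12 fell. Sox17 was at 113, 118 and 138 CPM against 27.8, 43.7 and 66.5 CPM, without overlap but short of the threshold (log2 fold change 1.27, edgeR adjusted p = 0.0549), and Hey1, below the limits, was at 0.863 to 1.09 CPM against 0.271 to 0.468 CPM. Dll4, a Notch ligand, was at 20.9, 18.2 and 23.6 CPM against 15.8, 32.7 and 55.7 CPM, and Efnb2 at 148, 139 and 155 CPM against 208, 188 and 146 CPM, with overlapping groups in both.

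The epithelial list was higher in Meis1-OE, mostly through Krt19. It summed to 27.0 to 47.2 CPM in Meis1-OE and 5.04 to 6.93 CPM in YFP-CTRL, with 14 of 18 markers under 1 CPM in every library and Epcam, Cdh1, Krt18, Cldn3, Cldn7 and Tjp3 at 0. St14, an epithelial serine protease, also rose, from 1.02 to 1.13 CPM to 2.31 to 2.97 CPM (log2 fold change 1.14, edgeR adjusted p = 0.0304), and in the controls Prom1 (2.22 to 2.73 CPM) stood above Krt19. The part of these markers in the values of Sprr3, Ly6d and Baiap2l1 was not tested.

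Among the families of the members, the guanylate-binding proteins alone held more than 1 switched-on gene. In 14 families that hold 15 of the 35 genes, 93 relatives were listed, 12 of them at 0 in every library. Of the 34 relatives with 1 CPM or more in a control library, the same edgeR test called 5 higher (14.7%), beside 3.32% of all such genes, and 0 lower. These were Megf10, Gbp4, Lgr6, Sprr1a and Sprr2b. A further 16 relatives below 1 CPM in the controls were tested, some of which entered only through their Meis1-OE counts, and are given by their values. Of the families, 10 were added after values had been seen, so the share is a description.

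The aquaporins showed 1 gene apart from the rest. Aqp8 was the switched-on member of 12 aquaporins, and 10 of the 12 lay below 1 CPM in every control. Aqp1, the main endothelial water channel, was at 74.2, 70.7 and 77.1 CPM against 6.06, 10.4 and 50.5 CPM, with control library C close to the Meis1-OE range (log2 fold change 1.58, edgeR adjusted p = 0.21). Ip6k3 was likewise the switched-on gene in a list of 5 inositol hexakisphosphate kinase genes. Ip6k1 was at 48.0 to 53.7 CPM against 39.1 to 45.0 CPM and Ip6k2 at 15.9 to 17.2 CPM against 15.6 to 23.3 CPM, and neither passed the test. Ppip5k1, at 19.9 to 23.8 CPM against 8.96 to 16.5 CPM without overlap, and Ppip5k2 did not pass either.

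Other families moved more widely. Of the guanylate-binding proteins, Gbp4 was at 37.5, 105 and 103 CPM against 3.46, 4.22 and 5.03 CPM, a log2 fold change of 4.14 (edgeR adjusted p = 0.0052). Gbp11 was at 0.507 to 1.16 CPM against 0 and Gbp8 at 0.724 to 0.970 CPM against 0.179 to 0.250 CPM, levels too low for the limits of the rule. Gbp9 did not, at 76.3, 150 and 161 CPM against 22.4, 43.2 and 64.8 CPM (adjusted p = 0.10). Gbp2, Gbp2b, Gbp3, Gbp5 and Gbp7 stayed under 5 CPM and did not pass.

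The small proline-rich proteins, cross-linked into the envelope of squamous cells, were on in part before Meis1. Sprr1a was at 571, 628 and 472 CPM against 69.1, 71.9 and 38.7 CPM (log2 fold change 3.07, edgeR adjusted p = 0.00232). Sprr2b was at 40.2, 42.7 and 40.5 CPM against 4.51, 6.24 and 7.38 CPM (2.62, adjusted p = 0.00203). The groups did not overlap in either gene, and Sprr1b was at 0.242 to 0.821 CPM against 0 to 0.0209 CPM.

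**Figure D3:**
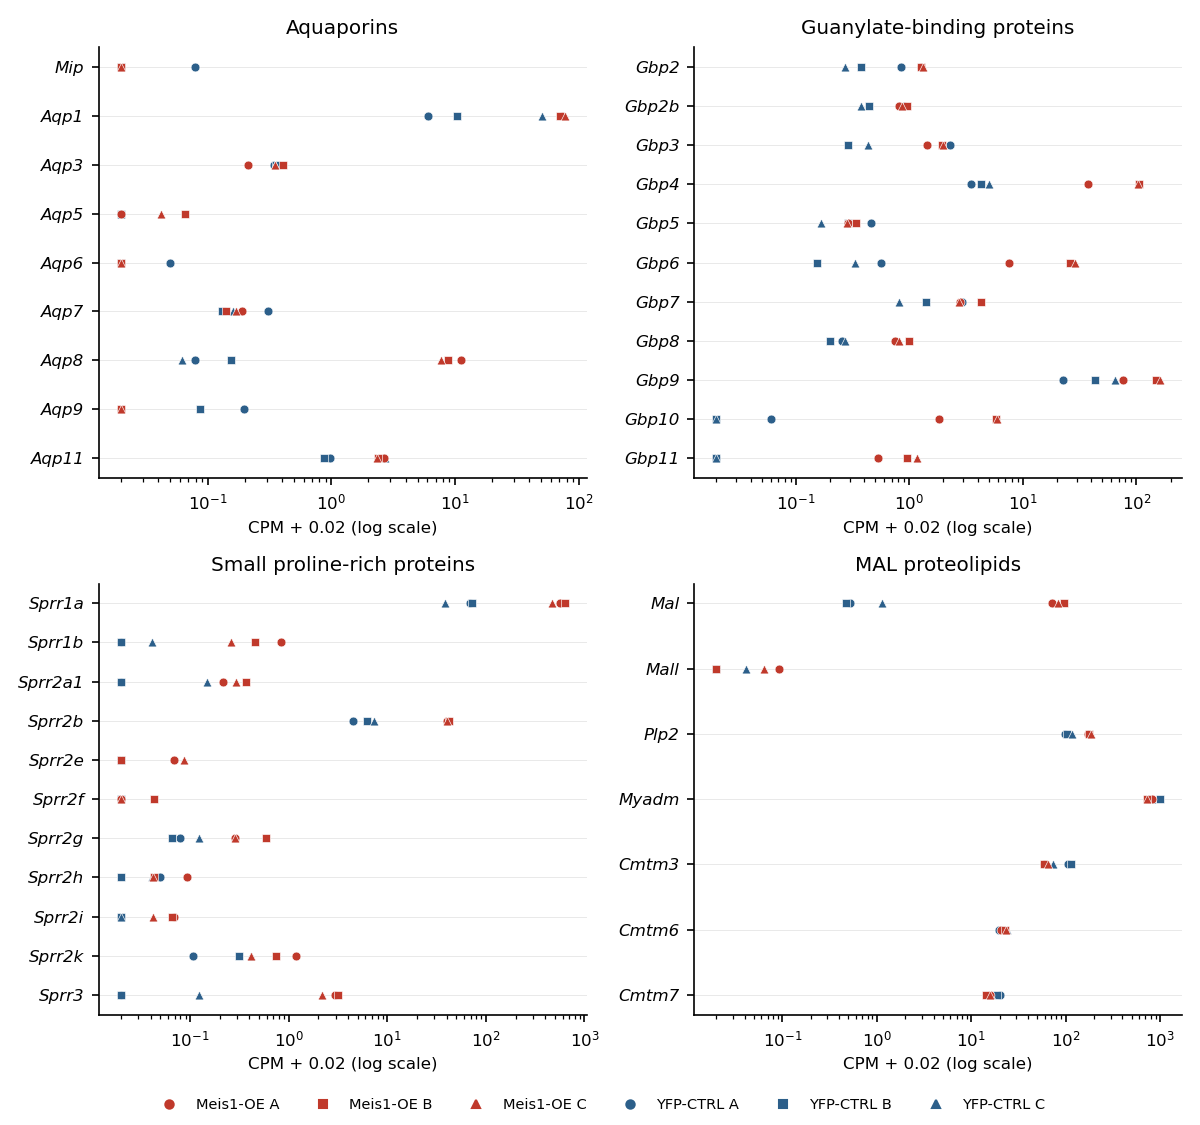
CPM + 0.02 on log axes for the detected genes of 4 families, by library (red, Meis1-OE and blue, YFP-CTRL, with circles, squares and triangles for libraries A, B and C). Aqp8 is the aquaporin whose groups lie farthest apart, and Gbp4 and Gbp6 are among the guanylate-binding proteins with no overlap. The rule required separate groups of the members Aqp8 and Gbp6. Sprr1a was at 472 to 628 CPM in Meis1-OE, and Mal lies near 1 CPM in control library C.

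Partners of the ligands and receptors were uneven. Lgr6, a receptor for R-spondins, was at 45.8, 37.5 and 35.5 CPM against 1.22, 1.46 and 5.74 CPM (log2 fold change 3.64, edgeR adjusted p = 0.0152), and Lgr4 was at 8.16 to 12.4 CPM against 5.45 to 9.86 CPM without passing. Gfra2, the preferred coreceptor of neurturin, was at 1.13, 1.11 and 0.791 CPM against 0.0293, 0.0224 and 0.0626 CPM, while Ret, the signalling receptor, held a count in 1 library only. Rxra, the partner of Vdr, was at 32.7 to 36.1 CPM against 30.6 to 39.1 CPM, and Cyp24a1, a target of Vdr, stayed at or under 0.0626 CPM in all libraries.

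Other relatives differed in size. Megf10, a scavenger receptor with EGF-like repeats, was at 22.6, 38.9 and 40.4 CPM against 1.46, 0.763 and 1.58 CPM (log2 fold change 4.62, adjusted p = 0.00195). Gfra4, a GDNF family coreceptor, was at 0.637 to 1.21 CPM against 0 to 0.167 CPM, and Gstm7, a mu class glutathione S-transferase, at 1.18 to 1.68 CPM against 0.293 to 0.563 CPM. In the MAL family, which held no member, Plp2 was at 171 to 184 CPM against 99.3 to 117 CPM and Cmtm3 at 58.4 to 65.6 CPM against 74.0 to 113 CPM. Both passed the test narrowly and lost the call with the column letter as a block (edgeR adjusted p = 0.0504 and 0.0865) and with most single libraries left out. Among other partners, Cdkn1a and Cdkn1b (Cdkn1c family), Mpst (Cbs pathway), and Kcnn2 and Kcnn4 (Kcnn3 family) did not pass the test.

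Mal, a proteolipid of myelin and epithelial membranes that had been put forward as a marker of the set, did not meet the rule. Its levels were 72.0, 97.3 and 84.1 CPM in Meis1-OE and 0.497, 0.449 and 1.11 CPM in the controls, and control library C put it over the control limit. It is therefore counted with the 6 genes that missed on that limit alone, the others being Clu, Efhd1, Krt13, Megf10 and Vegfc. Their Meis1-OE levels, from 8.23 CPM (Efhd1) to 97.3 CPM (Mal), met the other limits. Aqp8, Islr, Ip6k3 and Megf6, the other 4 proposed markers, were members.

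At the other limits the set had no sharp edge. Scin was closest inside, with a lowest Meis1-OE level 5.20 times its control base, followed by Ccl7 (5.22), Nrtn (5.34), Scml4 (5.35) and Baiap2l1 (5.42). Just outside, 13 genes reached 4 to 5 times, led by Fam124a (4.93) and Nup210 (4.89). Kank4 missed on level alone, at 0.965, 1.14 and 1.05 CPM. Ccl7, Nrtn, Oxtr and Scin were lost when library totals were scaled by TMM factors, which left 31 genes. A limit of 10 times kept 16 genes, and a limit of 3 times gave 62.

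Meis1-OE library A held the lowest level of the 3 for 24 of the 35 genes (68.6%), against 28.9% of all tested genes. The ratio of library B to A had a median of 1.60 over the members and 0.96 over all tested genes, and that of C to A 1.55 and 0.96. In 12 genes, among them Oxtr, Gbp6, Gbp10, Cbs and Cox8b, library A was under 0.5 of library C. Aqp8, Ankrd63, Baiap2l1 and Cdkn1c went the other way, with library A highest. Meis1 itself was at about the same level in libraries A and C (3266 and 3277 CPM), and the part of Meis1 level in the order of the libraries was not tested.

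**Figure D4:**
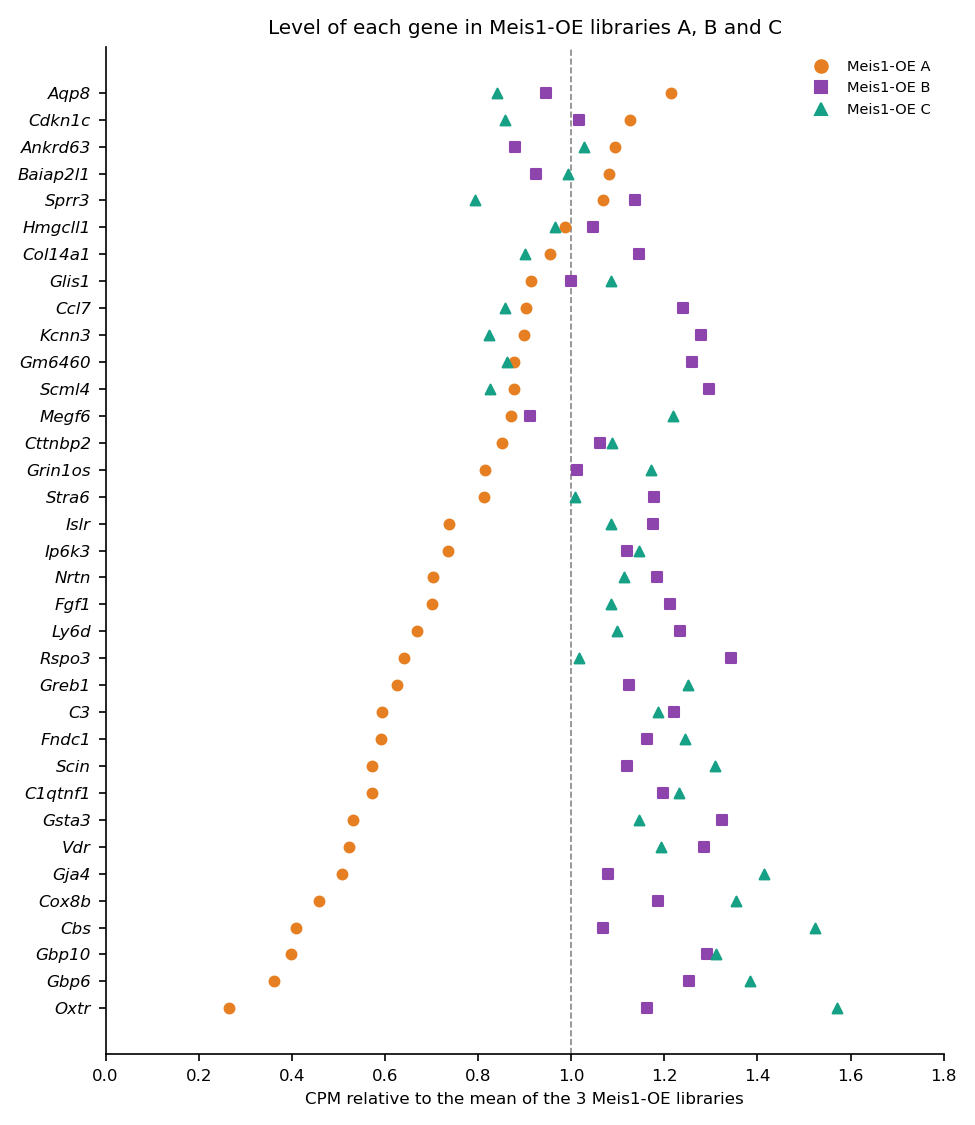
Level of each of the 35 genes in the Meis1-OE group, library A (circles), B (squares) and C (triangles), divided by the mean of the 3, on a linear axis, ordered by library A. Library A lies lowest for 24 genes and highest for 4, and Oxtr has the widest spread.

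Without Meis1-OE library B or library C, 36 genes met the rule each time, so library A and control library C, with 61 and 65, limited the set most. The highest control level was in library C for 17 of the 30 genes with a control count. The same share was not taken over all tested genes, so this is a description.

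Positions were found for all 35 genes, on 14 chromosomes. In 3 places a switched-on gene lay beside another gene that met the limits: Stra6 and Islr were 2.2 kb apart on chromosome 9, Gbp10 and Gbp6 31.2 kb apart on chromosome 5, and Ankrd63 1.0 kb from Plcb2 on chromosome 2 (GRCm38). Neighbours were taken as the nearest tested gene on each side, with untested genes passed over, so some were not adjacent. Edem1 was 3614.3 kb from Oxtr, and Sema3d was 783.7 kb from Gm6460. Of 65 such neighbours outside the genes that met the limits, edgeR's test called 11 higher (16.9%) and 0 lower at the adjusted threshold. Over all genes tested, the share called higher was 4.14%. Of the 11, 6 (Gbp11, Gm8906, Sema3d, Islr2, Cyp11b1 and Sprr1b) lay below 1 CPM in every control, most of them near 0, and such genes pass the filter on low counts mainly through Meis1-OE, so the 16.9% is a description. Without adjustment, 21 neighbours were higher and 5 lower with p under 0.05, and DESeq2 called 4 lower. Among the 51 neighbours with 1 CPM or more in a control library, 5 were higher (9.80%), beside 3.32% of all such genes. Neighbours of 8 members made up the 11, and 5 of the 11 were relatives of the member beside them (Gbp4, Gbp11, Sprr1a, Sprr1b and Islr2).

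Around Stra6 and Islr the increase took in several genes. Sema7a, a semaphorin 100.9 kb from Stra6, was at 7.02, 5.61 and 3.71 CPM against 0.527, 0.538 and 1.17 CPM (log2 fold change 2.70, edgeR adjusted p = 0.0116). Islr2, 37.1 kb beyond Islr, was at 3.43, 2.29 and 2.92 CPM against 0.878, 0.538 and 0.521 CPM (2.03, adjusted p = 0.0109). The next gene, Pml, was at 237, 230 and 206 CPM against 58.6, 35.4 and 107 CPM (1.61, adjusted p = 0.0427, a call lost in 6 alternatives), while Ubl7 and Stoml1 at the ends of the stretch did not pass the test. Beside Cbs, Pknox1, which encodes the TALE homeodomain protein PREP1, was at 80.8, 86.0 and 87.7 CPM against 23.3, 27.4 and 22.3 CPM (1.66, adjusted p = 0.00232). Around Ankrd63, only Plcb2 among the genes shown beside it passed the test. Inafm2, beyond Plcb2, was at 38.5, 41.9 and 43.3 CPM against 39.2, 33.9 and 34.5 CPM. On the other side, Bub1b was at 42.6, 42.3 and 40.6 CPM against 4.97, 14.1 and 38.8 CPM. Bmf, beyond it, was at 0.459 to 1.03 CPM against 0.0878 to 0.292 CPM. Both were higher without overlap but did not pass (edgeR adjusted p = 0.366 and 0.0893).

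**Figure D5:**
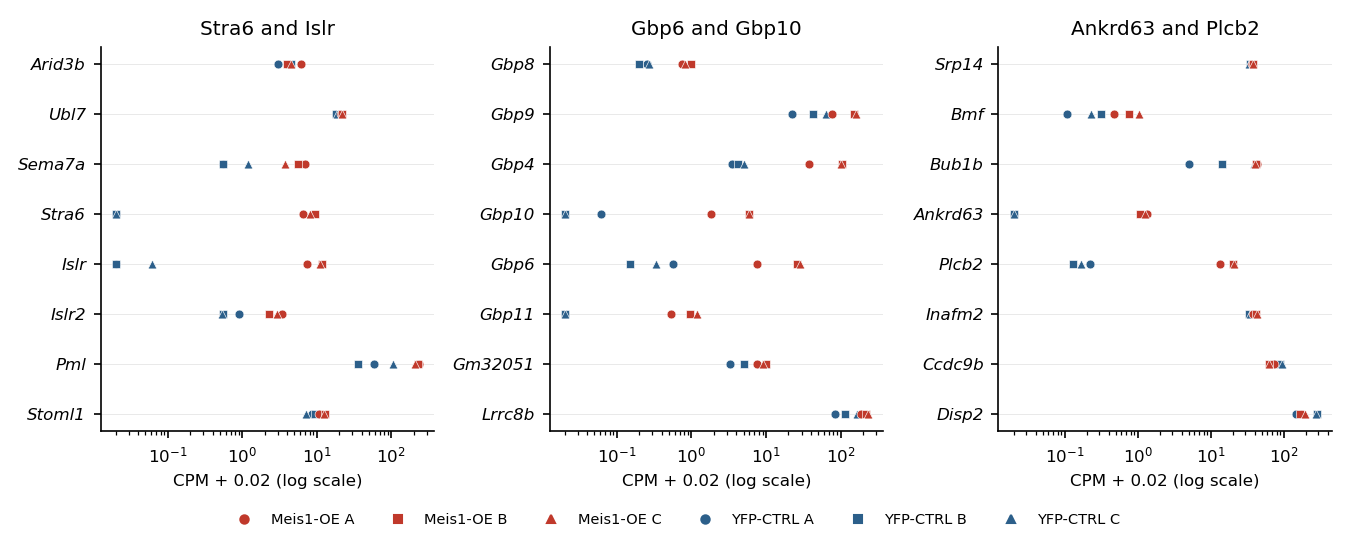
CPM + 0.02 on log axes, by library, for genes in chromosomal order around Stra6 and Islr, Gbp6 and Gbp10, and Ankrd63 and Plcb2 (red, Meis1-OE and blue, YFP-CTRL). Sema7a, Stra6, Islr, Islr2 and Pml are higher without overlap in the left panel, which the rule required of Stra6 and Islr. In the right panel Ankrd63 and Plcb2 stand between genes that did not pass the test. Of these, Bmf and Bub1b, between Srp14 and Ankrd63, were higher without overlap, and Srp14 and Inafm2 overlapped.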

How the data were processed

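Total RNA of 6 EC cultures, 3 per condition, was sequenced after ribodepletion. What the authors deposited was 1 table of estimated counts for 54429 genes, made from the reads by a counter that is not named and left without normalization. The labels name build mm10, and aligner and counter are not given in the sources used here. Columns were matched to conditions by name.

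CPM used each column's total. Counts were rounded and tested with edgeR 4.0.16 in R 4.3.3 (TMM, filterByExpr, quasi-likelihood test, Benjamini-Hochberg threshold 0.05, 16065 genes), with DESeq2 1.42.0 as an alternative. The program was tested on simulated data. Counting intervals and floors of 3 counts cover counting error only, since reads were not molecules. Motifs were searched on both strands of RefSeq windows of GRCm38.p6. Transcript lengths came from gencode vM1 by symbol. The members, tissue lists and families were chosen with earlier results of these data known. Named were every member, family relatives (the rule set down asked for every detected one, and some are given only by counts or in the plots), and the 3 largest increases and decreases among called tissue genes already on. Neighbours and the genes at 3 loci were examined after seeing the data. Alternatives were other limits, scalings and filters, DESeq2, each library left out, and column letters as a block.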

Additional observations from a re-analysis of the deposited data

How the results depend on the processing

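The number of switched-on genes was 35, 16 at 10 times the control base, 62 at 3 times and 21 with at least 2 CPM in every Meis1-OE library, and from 36 to 65 with single libraries left out. The other limits and scalings gave 29 to 43. Tissue-list genes switched on numbered 1, or 0 at 10 times, and 1 to 3 with libraries left out (2 without Meis1-OE library A, 3 without control library C).

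Over all genes 665 were higher and 438 lower. DESeq2 gave 1124 and 1115, library totals without TMM factors 1048 and 179, and leaving out libraries 115 to 2717 and 16 to 2498, the lowest without Meis1-OE library B and the highest without control library C. Of tissue and family genes already on, 18 were higher and 7 lower (14 lower with DESeq2), and 8 to 26 and 0 to 21 with libraries left out (8, 9 and 10 higher without Meis1-OE library B, Meis1-OE library C and control library B, and 0, 0 and 2 lower, with 1 lower without Meis1-OE library A, 12 without control library A and 21 without control library C). The families in the 18 and 7 were the aquaporins, inositol hexakisphosphate kinases, MAL, Megf and Islr relatives. Families added after values had been seen were not in them. Neighbours called higher numbered 11, or 6 with at least 10 counts in every library, and 4 to 25 with libraries left out (4, 6, 5 and 25 without Meis1-OE library B, Meis1-OE library C, control library B and control library C). The cause was not tested. Of the 55 single genes followed under these alternatives, none reversed, 151 values missed a threshold passed in the main design and 16 crossed it, while 479 kept their side. Plin4 lost its call in 8 alternatives, S100b, Tnnt2 and Cmtm3 in 7 and Hey1 and Pml in 6. Other genes named above lost calls too, among them St14 in 5, Lgr6 in 4, Islr2 in 3 and Sema7a in 2.

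With the column letter as a replicate block, 544 genes were higher and 189 lower. The letters do not pair the libraries by any label, and the correlation of same-letter deviations was 0.27 (A), 0.12 (B) and 0.07 (C), so the block was not the main design. Counts at 3 or fewer per library limit every ratio against a silent control.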

Other observations

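Several results outside the switched-on set had values worth a second look. Vwf, von Willebrand factor, was at 26.8, 80.1 and 88.6 CPM against 8.07, 5.70 and 7.01 CPM, a log2 fold change of 3.12 (edgeR quasi-likelihood test, adjusted p = 0.012), with library A again the lowest. Cldn5, the endothelial tight junction claudin, was at 180, 212 and 249 CPM against 26.3, 61.4 and 77.0 CPM (1.81, adjusted p = 0.0398). Tek, the angiopoietin receptor, was at 42.7, 47.9 and 52.3 CPM against 65.7, 82.5 and 74.2 CPM (-0.78, adjusted p = 0.0351). With single libraries left out, Vwf lost its call in 3 fits, and Cldn5 and Tek in 4 each. Cth, which follows Cbs in the transsulfuration pathway, was at 1.88, 1.66 and 1.54 CPM in Meis1-OE and at 56.3, 36.6 and 0.876 CPM in YFP-CTRL, so control library C lay with the Meis1-OE libraries for this gene (adjusted p = 0.0729). These genes were chosen after their values were seen.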
